A study of Arabidopsis thaliana with 8 samples.

Results

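NdhS, NdhN, CRR21, CRR41 and PIFI are nuclear genes of the plastid NAD(P)H dehydrogenase-like (NDH) complex and of chlororespiration. They are 5 of the 691 genes that the microarray annotation pairs with a probe of their own, and each was measured by 1 probe. They were chosen by name among the genes that a probe of 1 gene measures. Wild-type plants (WT) of Arabidopsis thaliana, ecotype Landsberg, with no transgene or mutation named in the labels, were exposed to red or to white light of 20 µE over 48 h. Each light had 4 samples of total RNA, numbered 1 to 4 in the labels, and each sample has 1 column of intensities for 3439 probes, called an array here. The labels name neither the tissue nor the age of the plants, nor do they state whether separate plants were sampled. The p-values below are thus set against a spread between samples that may be technical in part.

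The NDH complex sits in the thylakoid membrane, where it passes electrons from ferredoxin to plastoquinone and so contributes to cyclic electron flow around photosystem I. In darkness or low light it also feeds electrons to the plastoquinone pool, the process called chlororespiration, which can be seen as a brief rise of chlorophyll fluorescence after actinic light is switched off. Some subunits are encoded in the plastid genome and others in the nucleus, and nuclear factors edit the plastid transcripts and assemble the complex.

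The comparison asks whether transcripts of this pathway differ between the red and the white light treatment at matched intensity. None of the members passed the test after quantile normalization, which gives all arrays the same distribution of values. NdhS gave the brightest probe of the 5 and was higher in red light in all 4 pairs of same-numbered samples on the deposited scale, a difference that quantile normalization removed. CRR21 and PIFI had intermediate intensities whose red and white samples overlapped. NdhN and CRR41 were listed at or near 0 on nearly all arrays, so that these arrays give no usable level for them. In total RNA fewer cells of a type and less RNA per cell cannot be told apart.

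**Figure D1:**
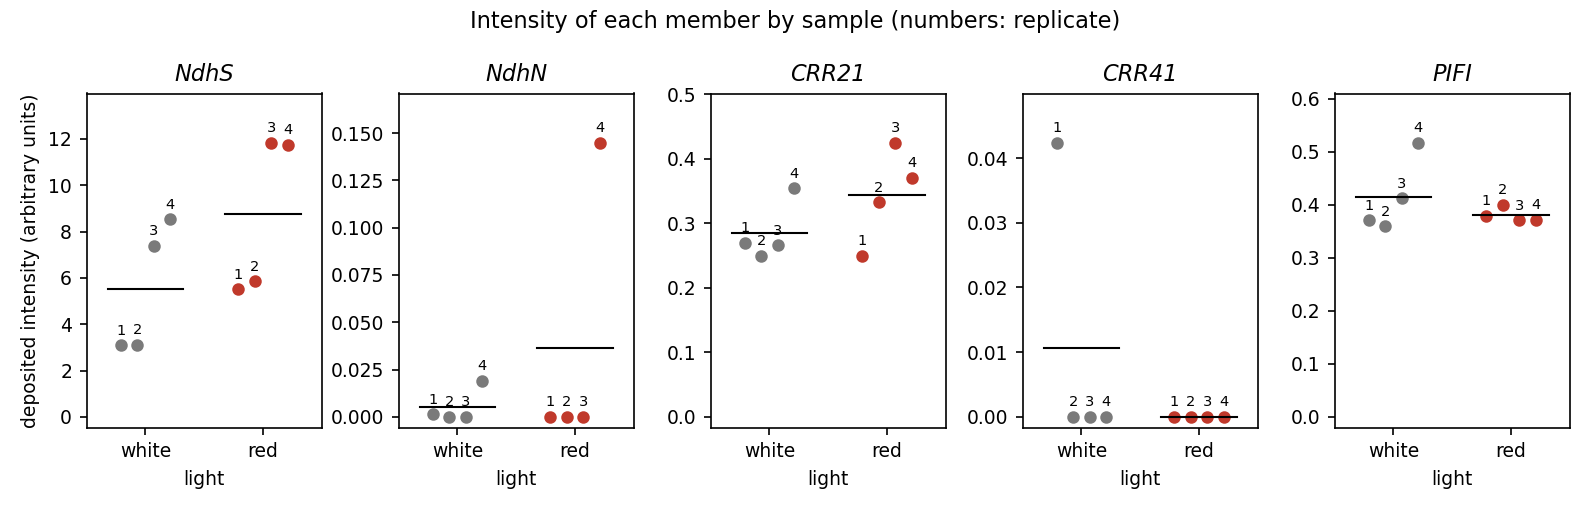
Deposited intensity (arbitrary units, linear axes that differ between panels) of each member in the 4 white and 4 red samples, with the sample number above each point and the group mean as a line. NdhS splits by sample number within each light, and NdhN and CRR41 lie at or near 0 except for NdhN in red sample 4 and CRR41 in white sample 1.

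Among the subunits, NdhS (AT4G23890, also called CRR31) encodes the stromal subunit that binds ferredoxin. Its intensity was 3.08, 3.12, 7.39 and 8.53 in white samples 1 to 4. It was 5.52, 5.85, 11.8 and 11.8 in red samples 1 to 4. The groups overlapped, since white samples 3 and 4 lay above red samples 1 and 2, while each red sample lay above the white sample of its own number. The means were 5.53 ± 2.84 in white light and 8.74 ± 3.53 in red light (SD, n = 4 each). Red over white was 1.79-fold, 1.87-fold, 1.60-fold and 1.38-fold for samples 1 to 4. The spread between samples within a light was of similar size to the difference between lights. Samples 3 and 4 of NdhS averaged 2.56 times samples 1 and 2 in white light and 2.08 times in red light.

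NdhS did not pass the test between lights, but the size and the sign of its difference followed the scaling of the arrays. After quantile normalization its log2 fold change was -0.08 ± 0.32 (SE), with a 95% interval from -0.81 to 0.65 and a limma adjusted p of 0.889. On the deposited scale the log2 fold change was 0.72 ± 0.44 (limma adjusted p = 0.265), which is 1.65-fold. With the sample number as a block, which compares each red sample with the white sample of its number, NdhS passed on the deposited scale, with 0.72 ± 0.16 (95% interval 0.32 to 1.13, limma adjusted p = 0.0248), and after centring on medians of the values above 0, with 0.73 ± 0.17 (limma adjusted p = 0.0277). Both of these fits were chosen after the data were seen. The same block after quantile normalization, which was planned, left NdhS at -0.08 ± 0.16 (limma adjusted p = 0.755). In the block fits on the deposited and the centred scale, 13.9% and 13.5% of all probes were called higher in red light. With samples 1 and 2, and samples 3 and 4, of a light treated as related (the pair as a random block), NdhS did not pass on the deposited scale (limma adjusted p = 0.447). The exact two-sided permutation p for NdhS on the deposited scale was 0.171, with 0.0286 the smallest that 70 splits allow. This test and the permutation tests below take the 8 samples as independent.

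NdhS was among the brightest probes of every array in both lights. NdhS exceeded 98.0%, 98.2%, 98.8% and 99.0% of the probes in white samples 1 to 4. It exceeded 98.1%, 98.1%, 98.8% and 98.7% in red samples 1 to 4. At this end of the range the percentage says little about change, since the 2.56-fold difference between samples within white light moved it by about 1 point. Bright probes as a class were brighter on the red arrays, where the 99th percentile of all probes was 11.0 to 13.1, against 5.38 to 8.31 on the white arrays. Between same-numbered arrays that percentile was 1.56-fold to 2.04-fold higher in red light, and in each of the 4 pairs this ratio exceeded the ratio of NdhS. Whether the brighter upper range reflects the light or the making of the values was not tested. The green tissue genes listed as markers were also brighter in sum on the red arrays. Of 10 such genes, 6 had a probe of their own and SBPASE was at 0 on all arrays. The other 5 were above the floor, described below for NdhN, on all arrays. Their summed intensity was 12.1 to 18.7 in white light and 38.6 to 105 in red light. This sum was taken on the deposited scale and can be carried by 1 bright gene, so it does not show whether the 5 rose together. None of 6 genes that mark root, pollen or seed had a probe of its own, and the part of tissue makeup in these results was not tested.

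**Figure D2:**
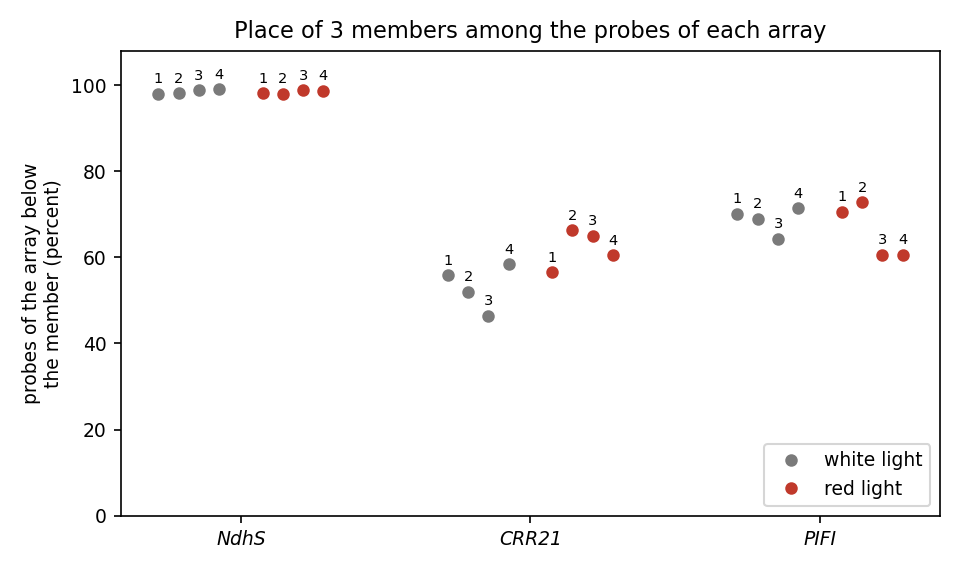
Percentage of the probes of each array that lay below NdhS, CRR21 and PIFI, per sample, with sample numbers above the points. NdhS lies between 98.0% and 99.0%, too near the top of the array for a change to show, and CRR21 lies at 46.5% to 58.4% in white light and 56.6% to 66.3% in red light.

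NdhN (AT5G58260) encodes a subunit of the part of the complex that faces the stroma and is conserved in cyanobacteria. It was listed at 0.00154, 0, 0 and 0.0192 in white samples 1 to 4. It was listed at 0 in red samples 1 to 3 and at 0.145 in red sample 4. A floor of 0.0716 on the normalized scale, below which values carry no order, was applied to all arrays, and NdhN was above it in red sample 4 alone. Its log2 fold change of 0.29 ± 0.29 (limma adjusted p = 0.504) therefore rests on 1 sample, without which NdhN was at the floor throughout and was not tested. With a floor set for each array separately, the red floors were higher than the white ones and NdhN was called higher in red light, at 1.47 ± 0.34 (limma adjusted p = 0.00824), as were 25.2% of all probes. That fit gives a difference to probes at the floor on all arrays, and it also gave one to CRR41 (1.16 ± 0.23, limma adjusted p = 0.00355), which had no intensity above 0 in red light.

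CRR21 (AT5G55740) encodes a pentatricopeptide repeat protein that is needed for editing of a site in the plastid ndhD transcript, which codes for a membrane subunit of the complex. Its intensity was 0.270, 0.250, 0.266 and 0.355 in white samples 1 to 4. It was 0.250, 0.332, 0.425 and 0.371 in red samples 1 to 4. Red samples 3 and 4 lay above all white samples, red sample 1 lay level with the lowest of them, and the groups overlapped. The log2 fold change was 0.36 ± 0.20 (95% interval -0.09 to 0.82, limma adjusted p = 0.223). A fall of more than 1.07-fold or a rise of more than 1.76-fold lies outside this interval. These limits ignore the likeness of samples 1 and 2 and of samples 3 and 4 within a light. When that likeness entered the normalized fit through a random block, the CRR21 interval widened to -0.53 to 1.26 (limma adjusted p = 0.676). After quantile normalization CRR21 had the largest fitted change of the 3 members measured above the floor on all arrays, and on the deposited scale NdhS did. The direction held on the deposited scale, at 0.26 ± 0.23 (limma adjusted p = 0.433), and after centring on medians of all values, at 0.46 ± 0.20 (limma adjusted p = 0.127). By number, the change of CRR21 on the normalized scale was 0.03, 0.57, 0.76 and 0.09 for samples 1 to 4, so that samples 2 and 3 carried most of it.

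CRR41 (AT1G51100) encodes a stromal protein that takes part in assembling the stromal part of the complex. It was listed at 0.0424 in white sample 1 and at 0 in the other 7 samples. CRR41 was below the floor on all arrays after normalization, so that no change was fitted, and no fold is given. The pairing of probes with genes rests on the annotation and was not checked against probe sequences.

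PIFI (AT3G15840) is named for the post-illumination rise of chlorophyll fluorescence, which plants without it lack, and its protein acts in chlororespiration. Its intensity was 0.371, 0.360, 0.413 and 0.517 in white samples 1 to 4. It was 0.380, 0.400, 0.371 and 0.372 in red samples 1 to 4. On this scale the red values lay close together, within the range of the white samples. On the normalized log2 scale of the fit red samples 3 and 4 lay at -1.59, below all white samples, of which the lowest was at -1.44, and the SD was 0.27 in red and 0.13 in white light. The log2 fold change of PIFI was -0.10 ± 0.21 (95% interval -0.57 to 0.37, limma adjusted p = 0.760). This leaves a fall of up to 1.48-fold and a rise of up to 1.29-fold inside the interval. For PIFI too the random block for like samples widened the interval, to -0.81 to 0.61 (limma adjusted p = 0.915). Same-numbered red over white ratios of PIFI on the deposited scale were 1.02, 1.11, 0.900 and 0.720. Samples 1 and 2 were thus slightly higher and samples 3 and 4 lower in red light. Centring on medians of all values turned the sign, to 0.09 ± 0.20 (limma adjusted p = 0.789).

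**Figure D3:**
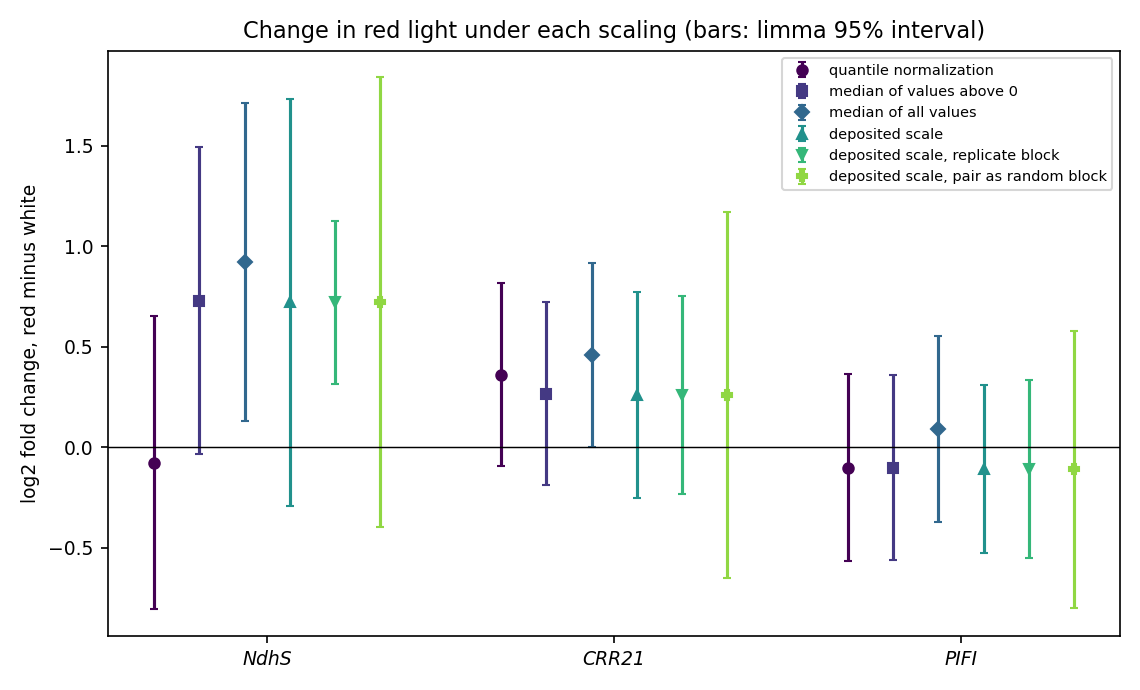
Log2 fold change (red minus white) of NdhS, CRR21 and PIFI with limma 95% intervals, under quantile normalization, 2 ways of centring on medians, the deposited scale, and the deposited scale with the sample number or the pair of similar samples as a block. NdhS moves from -0.08 under quantile normalization to between 0.72 and 0.92 under the other scalings, while CRR21 stays between 0.26 and 0.46 and PIFI between -0.11 and 0.09.

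Of the 4 members tested, 0 were called at an adjusted p under 0.05 in limma, and 0 had an unadjusted p under 0.05. Over all 3032 probes tested, 666 were called, or 22.0%. All 4 members had overlapping red and white samples, while 29.2% of all probes had none. The median log2 fold change was 0.11 over these 4 members, or -0.08 over the 3 above the floor on all arrays, and -0.03 over all probes. With so few members these shares say little about the pathway as a whole. A list of 37 other genes of the complex, of its assembly and RNA factors, of cyclic electron flow and of plastid quinone oxidation added nothing, since 1 of them, the editing factor OTP85, had a probe of its own and was at 0 on all 8 arrays. Another shared its probe with a second gene, and 35 had no probe named here.

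In brightness the probes followed the order NdhS, PIFI, CRR21, with NdhN and CRR41 at the bottom. This is an order of probe signals and not of transcript amounts, since probes differ in how well they bind. NdhS lay above every other member on each of the 8 arrays. PIFI exceeded CRR21 in all samples except red sample 3, and in red sample 4 they were nearly equal. PIFI exceeded 64.3% to 71.4% of the probes in white light and 60.6% to 72.8% in red light. The order of NdhN and CRR41 cannot be given, since both were at 0 on most arrays.

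Ratios of a pair of members within an array do not depend on any factor applied to the whole array. They still carry a difference between arrays that is unequal for bright and for dimmer probes. The median of all probes was 0.237, 0.238, 0.288 and 0.289 in white samples 1 to 4. It was lower in red samples 1 to 4, at 0.203, 0.202, 0.257 and 0.256. The upper percentile compared with NdhS above was higher there. A higher ratio of NdhS to PIFI or CRR21 on the deposited scale thus does not by itself show that NdhS changed relative to them. The log2 ratio of NdhS to PIFI on the deposited scale was 3.05, 3.12, 4.16 and 4.04 in white samples 1 to 4. It was 3.86, 3.87, 4.99 and 4.98 in red samples 1 to 4. The NdhS to PIFI ratio was higher in red light for all 4 numbers, by 0.75 to 0.94 (mean 0.83, SD 0.08), or 1.78-fold. Red samples 1 and 2 lay below white samples 3 and 4, so that the groups overlapped, and the exact permutation p over 70 splits was 0.171 (adjusted 0.257 over 3 ratios). An exact sign-flip test of the 4 same-numbered differences gave p = 0.125 (adjusted 0.188), the smallest that 4 differences allow. After quantile normalization the difference in this ratio was 0.02 (exact permutation p = 0.857), and its sign depended on single samples, with -0.19 to 0.25 on leaving out each in turn.

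The log2 ratio of NdhS to CRR21 was also higher in red light for all 4 numbers on the deposited scale, by 0.00263 to 0.95 (mean 0.46, SD 0.39; exact permutation p = 0.257), and sample 3 showed almost no difference. After quantile normalization the sign was turned, with a difference of -0.44 (exact permutation p = 0.286). The ratio of CRR21 to PIFI kept its direction under both scalings. On the deposited scale its log2 value was -0.54 ± 0.07 in white light and -0.17 ± 0.35 in red light (SD, n = 4 each; exact permutation p = 0.114), and it was higher in red light for 3 of 4 numbers. After quantile normalization the difference was 0.46 (exact permutation p = 0.0571, adjusted 0.286 over the 10 pairs of members). None of the 10 pairs passed, and 7 of them hold NdhN or CRR41 and so rest on the floor. With 0.0286 as the smallest p that 70 splits allow, a pair could not have passed alone after adjustment over 10. That none passed thus says little about whether the members changed unequally.

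**Figure D4:**
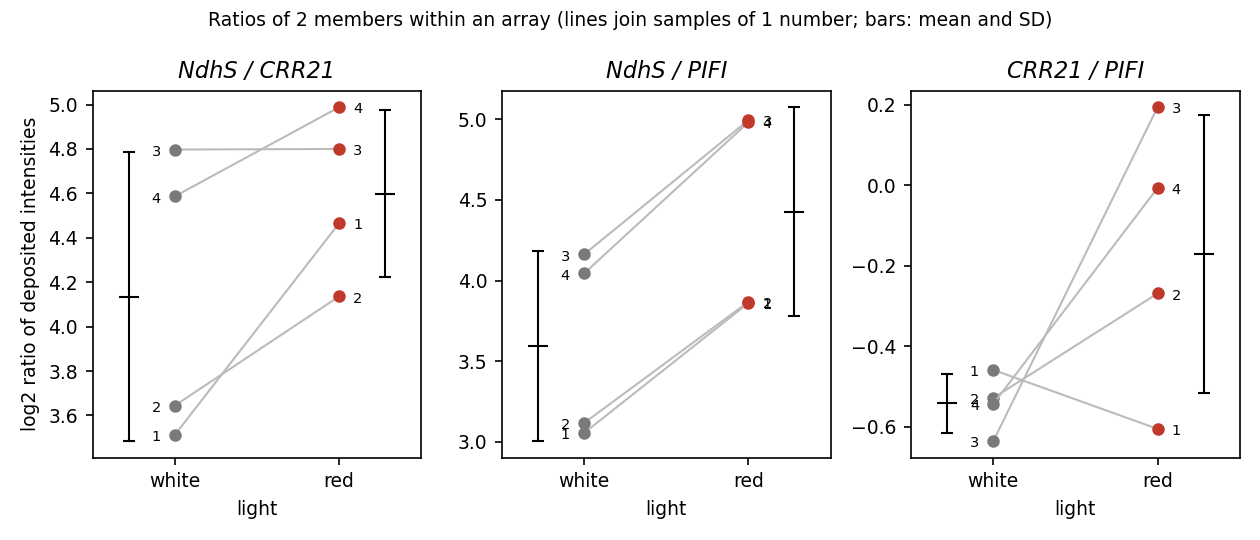
Log2 ratio of deposited intensities for 3 pairs of members within each array, with lines joining the white and red samples of 1 number and bars for mean and SD (n = 4). The NdhS to PIFI lines rise in parallel by 0.75 to 0.94 from 2 separate starting levels, while the CRR21 to PIFI lines fan out and 1 of them falls.

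The genes whose profile over the 8 arrays lay nearest to each member were taken from 430 other probes of 1 gene that were above the floor on all arrays. Likeness was the root mean square difference of normalized log2 values after each probe's own mean was subtracted. Nearest to NdhS were AT4G35660 at 0.14, AT2G46630 at 0.18 and AGL103 (AT3G18650), a gene of the MADS-box family, at 0.19. The median over the 430 was 0.67, and a flat profile would lie at 0.41 from NdhS. On this scale NdhS in samples 3 and 4 lay above samples 1 and 2 by 0.87 in white and 0.75 in red light. Its difference between lights was -0.08, so that its profile is mostly this split. Nearest to CRR21 were AT3G32930 at 0.12, AT4G14380 at 0.19 and AT2G39360 at 0.21, with a median of 0.60. A flat profile would lie at 0.25 from CRR21, so that AT4G14380 and AT2G39360 are little nearer to it than no change at all. Of the 3 AT2G39360 was called, with a log2 fold change of 0.64 ± 0.18 (limma adjusted p = 0.0354). Nearest to PIFI were AT2G15440 at 0.06, AT2G13690 at 0.11 and AT2G47830 at 0.15, with a median of 0.55, and a flat profile would lie at 0.19 from PIFI. These arrays share the resemblance of samples 1 and 2 and of samples 3 and 4, which enters every profile.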

How the data were processed

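The authors deposited linear probe intensities of at most 100 units, and how they corrected and scaled these is not given in the sources used. Genes were named from the platform annotation, through a TAIR10.1 table used for names only, which holds no protein families, so that pentatricopeptide genes were not counted. Arrays were quantile-normalized. Values under 1 floor, 0.0716, the highest over arrays of the 5th percentile of positive values, were raised to it, and 407 probes at the floor on all arrays were left out. Log2 values of 3032 probes were fitted with limma 3.58.1 in R 4.3.3 (lmFit, eBayes), as two-sided tests of red minus white, and p was adjusted over all of them by Benjamini-Hochberg. The fit was run on simulated data with independent noise on each array. Those data lack the resemblance of samples 1 and 2 and of samples 3 and 4, so they cannot show the error rate of the fit under it. Members, lists and settings were chosen with earlier results of these data known. All members are named, with the 3 nearest profiles of each that was above the floor throughout. Same-numbered samples of the 2 lights deviated together (correlations 0.24 to 0.32 over probes, against -0.21 to 0.11 for other numbers), a tie from the data and not the labels, so that the number was also fitted as a block. Within a light, samples 1 and 2, and samples 3 and 4, were tied more strongly (0.33 to 0.47, against -0.72 to -0.67 between these pairs). The main fit takes the samples as independent and leaves this tie out, so that the pair was also fitted as a random block. Alternatives covered scaling, the floor, filters, the variance model, array weights, blocks and leaving out each sample. Exact tests and plots used Python 3.11.15 with matplotlib 3.10.9. The number of arrays limits the precision.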

Additional observations from a re-analysis of the deposited data

Results flagged for a closer look

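In 4 of 16 groups of 4 values among the members, 1 sample stood far from the other 3. By chance 1 in 20 such groups would show this if values were independent and measured, and most of these are 0. Each member and light was examined on the deposited and, where its values differed, on the normalized scale. The 16 groups thus share samples, and NdhN in red sample 4 was flagged on both scales. NdhN was listed at 0.145 in red sample 4, with 0 in the other red samples, and its normalized log2 intensity there was -2.63 with the others at the floor of -3.80. In white light NdhN was listed at 0.0192 in sample 4, below the floor, with 0.00154 as the next value. CRR41 was listed at 0.0424 in white sample 1, also below the floor, with 0 in the other white samples.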

How the results depend on the processing

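The sign of the NdhS difference followed the scaling. The log2 fold change became 0.72 with values as deposited, 0.73 after centring on medians of values above 0 and 0.92 after centring on medians of all values (limma adjusted p = 0.0833), with the same 0.72 and 0.73 when the sample number or the pair of similar samples was a block. With the pair as a block the limma adjusted p was 0.447 and 0.338. Without 1 sample NdhS ranged from -0.24 to 0.10, NdhN from 0.31 to 0.38, CRR21 from 0.27 to 0.44 and PIFI from -0.19 to -0.02, none past the threshold in limma. PIFI was 0.094 in samples 1 and 2 alone and 0.089 after centring on medians of all values. NdhN passed with a floor for each array (1.47), and it had no value in samples 1 and 2 alone, without red sample 4 or with dim probes left out. CRR41 gave 0 with no filter, -0.10 with an offset and 1.16 with a floor for each array. The replicate block changed no member's call after quantile normalization and gave 788 calls over all probes. Calls over all probes were 1254 with a floor for each array, 114 with the pair as a random block (175 on the deposited scale and 172 after centring), 0 with pairs averaged (limma, 458 at an unadjusted p under 0.05), 1343 in samples 1 and 2 alone, 1224 in samples 3 and 4 alone and 455 to 614 without 1 sample. Of the 666 calls 334 were higher and 332 lower in red light, against 294 and 467 on the deposited scale, 325 and 479 after centring on medians above 0, 450 and 361 with medians of all values and 868 and 386 with a floor for each array. The median log2 fold change of all probes was -0.14, -0.15, 0.01 and 0.20 in these 4 settings. Differences between members in red minus white turned sign for NdhS minus NdhN (0.49 deposited, 0.50 and 0.64 with the 2 ways of centring), NdhS minus CRR21 (0.46 in all 3), NdhS minus CRR41 (0.72, 0.73 and 0.92) and CRR41 minus PIFI (-0.089 with medians of all values). Leaving out 1 sample also turned the sign of NdhS minus PIFI (-0.19 to 0.25), NdhN minus CRR21 (-0.38 to 0.09) and NdhS minus CRR41 (-0.24 to 0.10). NdhN minus CRR41 was 0 without red sample 4, and the other 6 kept their sign. The cause was not tested. Centring on all values, the blocks on other scales and the ratios on the deposited scale by number were chosen after seeing the data. The floor limits NdhN and CRR41.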
